A study of Solanum tuberosum with 6 samples.

Results

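The clones annotated with fatty acid, wax and membrane lipid metabolism numbered 106 of the 10499 on the array, and their response to salt was followed in the cultivar PS3 of potato (Solanum tuberosum), in leaves. Members were chosen by words in the annotation alone, among them fatty acid, desaturase, acyl carrier, acyl-CoA, lipase, elongase, wax, sphingo and phosphatidyl. Sterol, lipid-transfer, carotene and lipoxygenase clones were left out. Annotations are by similarity to known genes: 8 clones were named after a potato gene, 36 after an Arabidopsis gene and 19 after a rice gene. The 106 clones carry 80 distinct annotations, and 39 of them share an assembled transcript number with another member, so they are not 106 separate genes.

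Plants of the salt groups had been watered with 75 mL of 150 mM NaCl and those of the control groups with tap water of the same volume. Leaves 1 and 2 of each plant were taken 3 days or 1 day later, from a separate set of plants for each day, with 3 independent biological replicates per treatment and day. Plants had been raised from in vitro plantlets and kept in pots before salt was given. Each of the 6 two-colour cDNA arrays set the salt leaves of 1 replicate against the control leaves of the same day and number. All values below are log2 ratios of salt over control, so 1 stands for a doubling and 0 for no difference. The sources do not state this direction, which was taken as the likely one because control is marked as the reference channel in the labels. Within each day arrays of opposite dye orientation were positively correlated. That shows that they share a direction, but would hold with either one.

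Fatty acids of leaves are made in the plastid, where acyl carrier protein holds the growing chain, ketoacyl-ACP synthases lengthen it and a soluble stearoyl-ACP desaturase puts in the first double bond. Membrane-bound desaturases of the plastid and the endoplasmic reticulum then add further double bonds to fatty acids already built into membrane lipids, which sets how fluid the membrane is and how much trienoic fatty acid the thylakoid galactolipids hold. Lipases release fatty acids again, peroxisomal enzymes degrade them, elongases extend them for wax and cuticle, and phosphoinositides act as signals.

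The arrays measured between 7867 and 10381 clones, and 81 of the 106 members were measured on all of them. Correlations between the arrays of a day were 0.475 to 0.639 on day 3 and 0.506 to 0.809 on day 1, and replicate 1 of day 3 stood apart, with correlations of -0.086 to 0.031 with the arrays of day 1. Salt was in Cy3 on replicates 1 and 3 and in Cy5 on replicate 2 of each day. The fit therefore held a dye term, and a fitted ratio weighs both dye orientations equally and can differ from the mean of the 3 arrays. Errors are half-widths of 95% intervals from that fit, which uses 1 estimate of the spread per clone for both days. The files hold ratios and no levels, so the leaf label could not be set against tissue markers, and fewer cells of a type cannot be told apart from less RNA per cell.

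Fewer of these clones passed the test on day 3 than on day 1, and on both days most of those that passed were lower in salt leaves. On day 3, 8 of 93 tested members fell and 1 rose at a limma adjusted p under 0.05, while 4.42% of all clones tested fell and 1.93% rose. On day 1, 22 of 100 tested members fell and 8 rose, while 10.5% of all clones tested fell and 8.11% rose. The median member stood at -0.04 on day 3 and -0.09 on day 1, with all clones at 0.01 and 0.03 on those days. The 22 clones that fell on day 1 carry 16 distinct annotations. Of the 22 falls on day 1, 18 were of plastid fatty acid synthesis or of desaturases, and both clones of hydroperoxide lyase fell on both days. With all arrays, no fall on day 1 was seen among 29 tested clones of lipases and phospholipases. The 12 tested clones of acyl-CoA metabolism, 5 of sphingolipids and 5 of wax and elongation had none either. These last groups are too small to compare with 10.5%. Without replicate 1 of day 3, 2 lipase or phospholipase clones, 1 of acyl-CoA metabolism and 1 of wax and elongation fell on day 1. If the ratios ran the other way, the 8 falls and 1 rise of day 3 would be 8 rises and 1 fall, the 22 falls and 8 rises of day 1 would be 22 rises and 8 falls, and lowest and highest would change places throughout. Leaving out 1 array at a time left 2 (without replicate 2 of day 3) to 10 falls on day 3 and 10 (without replicate 2 of day 1) to 27 falls on day 1. Of 291 called values refitted in this way, including the differences between days, 98 no longer passed with the fewer arrays, and in 95 of those 98 the ratio stayed within 1.5 times of its value with all arrays.

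**Figure D1:**
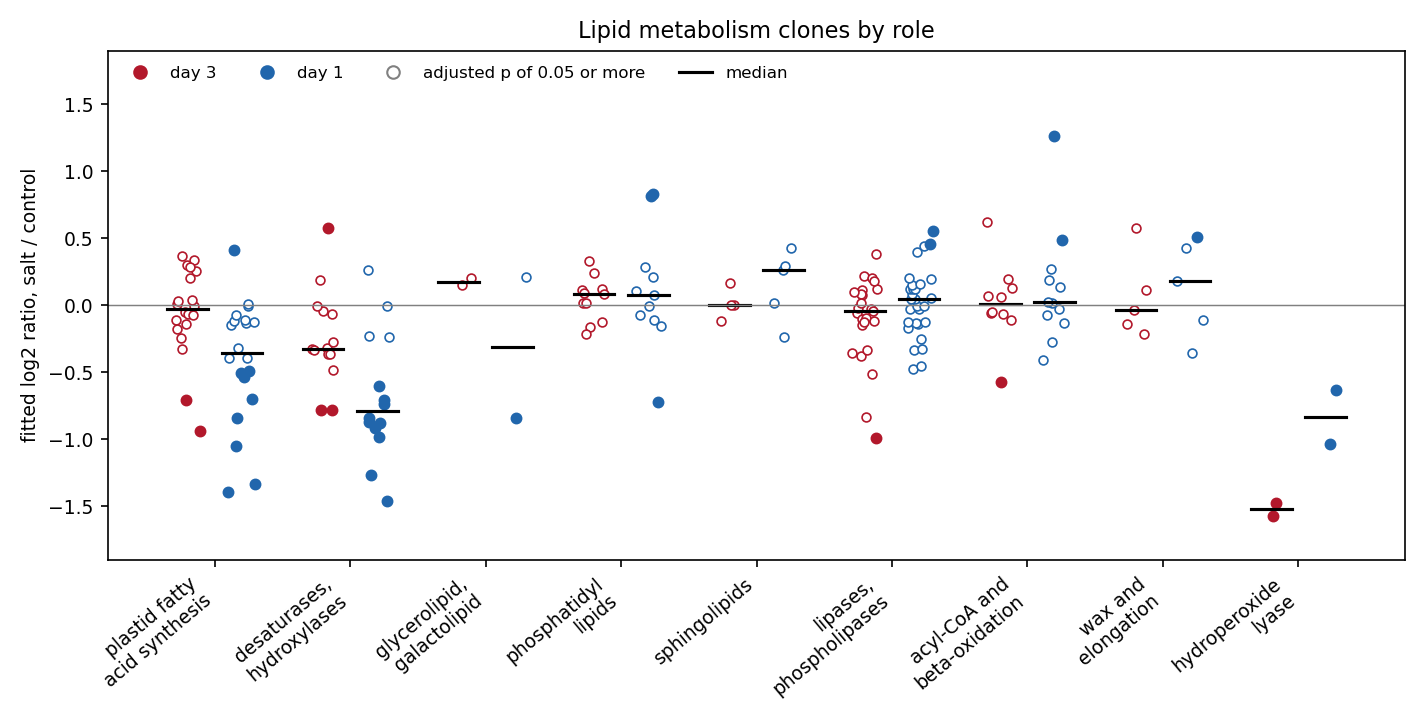
Fitted log2 ratio of salt over control for each tested clone, by role, with day 3 left of day 1 in each role. Filled points passed an adjusted p under 0.05. Hydroperoxide lyase clones lie below -0.6 on both days, and most desaturases lie below 0 on day 1, where lipases and phospholipases spread around 0.

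Plastid fatty acid synthesis was represented by 20 clones. On day 3, 2 of them fell (10%, against 4.42% of all clones) and none rose, and their median ratio was -0.03. On day 1, 8 fell (40%, against 10.5%) and 1 rose (5%, against 8.11%), with a median of -0.36. The array medians of these 20 clones were 0.21, -0.09 and -0.14 on day 3 and -0.45, -0.30 and -0.45 on day 1. Replicate 1 of day 3 was the one array with a median above 0.

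Acyl carrier protein (STMFB55, named after a tomato gene), the carrier of the growing chain, read 0.66, -0.32 and -0.68 on the arrays of day 3 and -1.96, -1.16 and -1.09 on those of day 1. All arrays of day 1 lay below all arrays of day 3, which themselves disagreed in sign. The fitted ratio was -0.11 ± 0.59 on day 3 (adjusted p = 0.89) and -1.40 ± 0.59 on day 1 (adjusted p = 0.00523), a fall of 2.63-fold. A further carrier protein clone, STMEK75, read 0.32, -0.14 and -0.11 on day 3 and -0.74, -0.28 and -0.47 on day 1. It stood at 0.03 ± 0.33 on day 3 (adjusted p = 0.95) and fell on day 1 (-0.49 ± 0.33, adjusted p = 0.0465). The remaining carrier protein clones did not pass on either day, STMEK32 with -0.05 on day 3 and -0.32 on day 1, and STMGH37 with 0.04 and -0.003 on the same days. STMEK32 and STMEK75 share an assembled transcript number. Without replicate 1 of day 1 the calls of STMFB55 (-1.12, adjusted p = 0.0692) and STMEK75 (-0.37, adjusted p = 0.216) ended, and that of STMEK75 also ended without replicate 2 of day 1 (adjusted p = 0.1), replicate 3 of day 1 (adjusted p = 0.128) or replicate 2 of day 3 (adjusted p = 0.0877).

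The ketoacyl-ACP synthases, which add each carbon pair to the chain, differed among themselves. Clone STMDI44, annotated as synthetase I, read 1.19, 0.00 and -0.20 on day 3 and -0.71, -1.26 and -0.94 on day 1. The days did not overlap, and replicate 1 of day 3 was far above the others. STMDI44 had 0.25 ± 0.51 on day 3 (adjusted p = 0.634) and fell on day 1 (-1.05 ± 0.51, adjusted p = 0.0106). Clone STMEC59, also synthetase I but with another transcript number, read -0.17, 0.12 and -0.17 on day 3 and -0.81, -0.33 and -1.20 on day 1. It had 0.01 ± 0.29 on day 3 (adjusted p = 0.981) and fell on day 1 (-0.70 ± 0.29, adjusted p = 0.00532), a call that held with each array left out. Clone STMIP35, synthase I, had 0.51 and 0.09 on the 2 arrays that measured it on day 3 and -0.56, -0.32 and -0.62 on day 1. It had 0.30 ± 0.38 on day 3 (adjusted p = 0.401) and fell on day 1 (-0.51 ± 0.32, adjusted p = 0.0395).

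Synthase II, which carries the chain from palmitoyl to stearoyl length, passed on both days. Clone STMED45 read -0.50, -0.86 and -0.65 on day 3 and -0.34, -0.59 and -0.58 on day 1, below 0 on every array. It fell on day 3 (-0.71 ± 0.27, adjusted p = 0.00629) and on day 1 (-0.54 ± 0.27, adjusted p = 0.0121). The difference between the days was -0.17 ± 0.37 (adjusted p = 0.572). Without replicate 2 of day 3 its day 3 call ended (-0.64, adjusted p = 0.281), and its day 1 call ended without replicate 2 (adjusted p = 0.141) or replicate 3 of day 1 (adjusted p = 0.0842). The day 1 call of STMDI44 ended without replicate 1, 2 or 3 of that day (adjusted p = 0.0762, 0.111 and 0.0508), and that of STMIP35 did so too (adjusted p = 0.171, 0.0777 and 0.168) and without replicate 2 of day 3 (adjusted p = 0.0668). Other clones named 3-oxoacyl-ACP synthase (STMIJ13, STMEN53, STMJP08) passed on neither day. They had -0.18, -0.002 and -0.07 on day 3 and -0.39, -0.12 and 0.008 on day 1.

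The ketoacyl-ACP reductases carry out the next step of the cycle. The reductase-like clone STMIO79 read -1.80, -0.49 and -0.68 on day 3, and -0.23, -0.25 and 0.002 on day 1. It fell on day 3 (-0.94 ± 0.49, adjusted p = 0.0356), with -0.11 ± 0.49 on day 1 (adjusted p = 0.787). Every array of day 3 lay below every array of day 1, but replicate 1 of day 3 was far below the others. The ratio was -0.58 without that array, where the call held, and the call ended without replicate 2 of day 3 (-1.31, adjusted p = 0.0823) or replicate 1 of day 1 (-0.94, adjusted p = 0.12). The other reductase clone, STMEJ59, had 0.28 on day 3 (adjusted p = 0.219) and -0.13 on day 1 (adjusted p = 0.507). Both member clones of the biotin carboxyl carrier subunit of acetyl-CoA carboxylase, which supplies the malonyl units, passed on neither day. STMIF34 had -0.06 on day 3 and -0.15 on day 1, and STMDD39 had -0.14 and -0.13 on the same days. Replicate 2 of STMDD39 went against its other arrays, with 0.46, -0.74 and 0.39 on day 3 and 0.02, -0.59 and 0.71 on day 1. A biotin carboxylase carrier protein clone outside the member list, STMHT62, also passed on neither day. It had 0.32 on day 3 (adjusted p = 0.191) and -0.34 on day 1 (adjusted p = 0.0937). Its difference between the days passed (0.66 ± 0.38, adjusted p = 0.0361).

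The soluble desaturases acting on stearoyl-ACP were measured by 4 clones. Clone STMCG92, named after the potato acyl-ACP desaturase, read 0.66, 0.05 and -0.12 on day 3 and -0.91, -0.62 and -1.03 on day 1. It had 0.21 ± 0.38 on day 3 (adjusted p = 0.6) and fell on day 1 (-0.84 ± 0.38, adjusted p = 0.00769). Clone STMGL35 shares its transcript number and had -0.001 and 0.67 on the 2 measured arrays of day 3 and -0.79, 0.18 and -1.03 on day 1, where replicate 2 went against the other arrays and the test was missed (-0.40 ± 0.30, adjusted p = 0.072). The sesame-like clone STMCA28 read 0.81, -0.65 and -0.86 on day 3 and -1.58, -1.004 and -1.38 on day 1. Replicate 1 of day 3 went against the other arrays of that day. The fitted ratio was -0.25 ± 0.65 on day 3 (adjusted p = 0.744), and the clone fell on day 1 (-1.33 ± 0.65, adjusted p = 0.0109). The clone named after Solanum commersonii, STMHN19, passed on neither day, with 0.37 on day 3 (adjusted p = 0.15) and -0.07 on day 1 (adjusted p = 0.769). Without replicate 1 of day 1 the calls of STMCG92 (-0.82, adjusted p = 0.0709) and STMCA28 (-1.19, adjusted p = 0.114) ended.

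**Figure D2:**
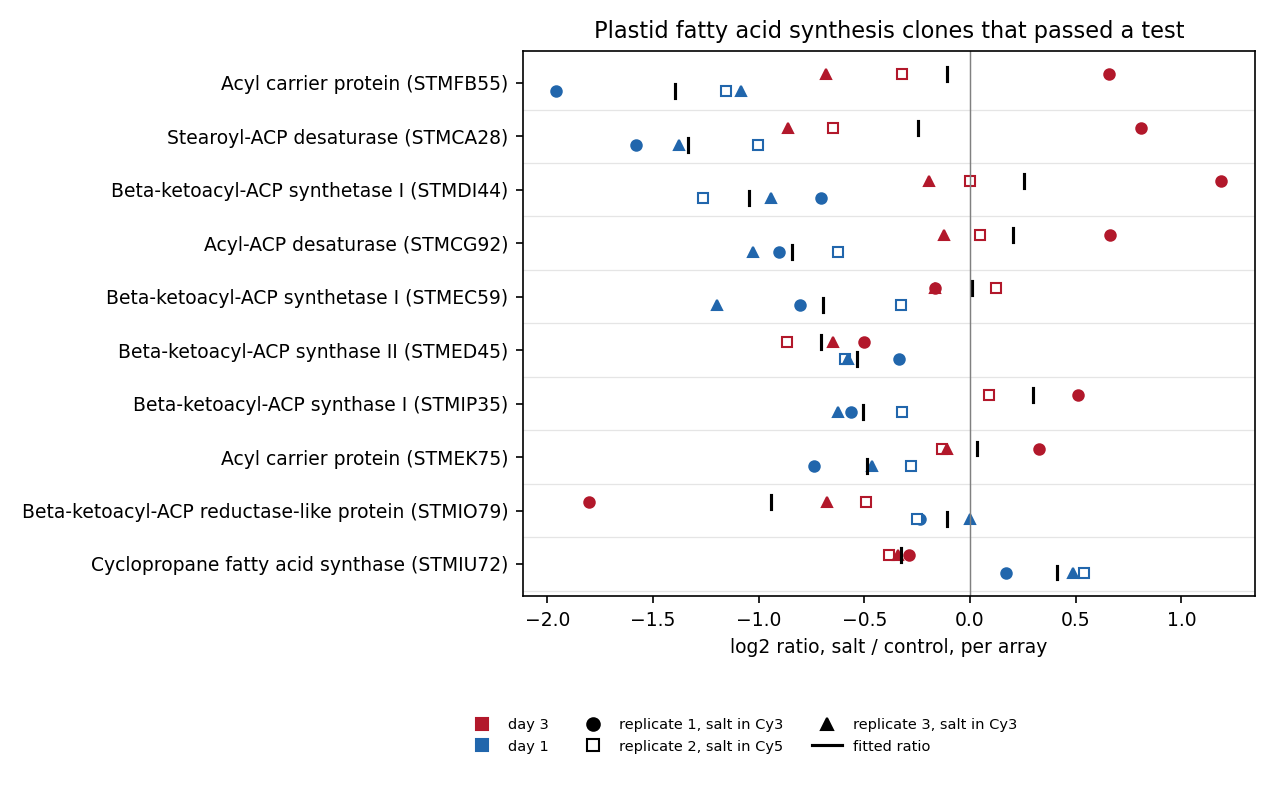
Log2 ratio of salt over control per array for the plastid fatty acid synthesis clones that passed a test, with day 3 drawn above day 1 in each row, filled or open marks for replicates and vertical bars for the fitted ratios. Circles of day 3 (replicate 1) lie above the other day 3 marks in acyl carrier protein STMFB55, stearoyl-ACP desaturase STMCA28 and synthetase I STMDI44, and far below them in reductase-like STMIO79.

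One further clone fell into this group by its wording, cyclopropane fatty acid synthase STMIU72, an enzyme that modifies a double bond in a membrane lipid and is no part of plastid synthesis. It read -0.29, -0.38 and -0.34 on day 3 and 0.17, 0.54 and 0.49 on day 1, with no overlap between the days. It had -0.32 ± 0.28 on day 3 (adjusted p = 0.182) and rose on day 1 (0.41 ± 0.28, adjusted p = 0.0468). The day 1 call was lost without any 1 of replicates 1, 2 and 3 of day 1 (adjusted p = 0.0554, 0.507 and 0.204) or replicates 2 and 3 of day 3 (adjusted p = 0.0741 and 0.054).

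Membrane desaturases and hydroxylases were the group with the largest share of falls among those of over 2 clones. Of 14 clones, 2 fell (14.3%, against 4.42% of all clones) and 1 rose (7.14%, against 1.93%) on day 3. On day 1, 10 fell (71.4%, against 10.5%) and none rose. Several of these 10 share an assembled transcript number, as given below, so they are not 10 separate genes. The median ratio of the 14 clones was -0.32 on day 3 and -0.79 on day 1. On the single arrays their median reached 0.002, -0.48 and -0.44 on day 3 and -0.55, -0.86 and -0.88 on day 1. Across the arrays left out in turn, 3 (without replicate 2 of day 1) to 10 of the clones fell on day 1.

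All 5 membrane desaturase clones annotated as chloroplast precursors fell on day 1. Clone STMCP71, the palmitoyl-monogalactosyldiacylglycerol desaturase that puts a double bond into the palmitate of the main thylakoid galactolipid, read -0.62, -0.86 and -0.72 on day 3 and -1.54, -1.66 and -1.04 on day 1. All arrays were below 0 and all of day 1 were the lower ones. It fell on day 3 (-0.78 ± 0.30, a 1.72-fold fall, adjusted p = 0.00655) and on day 1 (-1.46 ± 0.30, a 2.75-fold fall, adjusted p = 0.000191). The day 1 ratio was the lowest of any member, and this call held with each array left out, while the day 3 call ended without replicate 2 of day 3 (-0.86, adjusted p = 0.133).

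The omega-6 desaturase of the chloroplast, which makes dienoic from monoenoic fatty acids, was measured by 4 clones that are tied to each other by shared transcript numbers. Clone STMCK79 read 0.06, -0.49 and -0.49 on day 3 and -0.55, -1.11 and -0.78 on day 1. Clone STMEI66 read 0.05, -0.48 and -0.57 on day 3 and -0.60, -1.08 and -1.17 on day 1. Clones STMCU78 and STMCM57 had the same shape, with replicate 1 above the other arrays on both days. On day 3 none passed, with ratios of -0.36 (STMCK79), -0.36 (STMEI66), -0.48 (STMCU78) and -0.27 (STMCM57). All 4 fell on day 1, to ratios of -0.87 (STMCK79, adjusted p = 0.00235), -0.98 (STMEI66, adjusted p = 0.0027), -0.84 (STMCU78, adjusted p = 0.00383) and -0.71 (STMCM57, adjusted p = 0.0205). Without replicate 2 of day 1 the calls of all 4 ended (adjusted p = 0.079, 0.0564, 0.0907 and 0.0839), and that of STMCM57 also ended without replicate 1 (adjusted p = 0.0937) or replicate 3 of day 1 (adjusted p = 0.115). Without replicate 2 a day holds salt in Cy3 only, and its dye term then comes from the other day.

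Among the oleate desaturases of the endoplasmic reticulum type, clone STMIY10, named after D12 oleate desaturase of Solanum commersonii, read -0.29, -0.29 and -0.44 on day 3 and -1.51, -1.16 and -1.20 on day 1. All arrays were below 0, and the days did not overlap. It missed the test on day 3 (-0.32 ± 0.27, adjusted p = 0.184) and fell on day 1 (-1.27 ± 0.27, a 2.41-fold fall, adjusted p = 0.000223), with each array left out as well. Clone STMEP56, similar to a delta-12 desaturase of borage, read 0.44, -0.10 and 0.37 on day 3 and -0.31, -0.64 and -0.69 on day 1. It had 0.19 ± 0.29 on day 3 (adjusted p = 0.518) and fell on day 1 (-0.60 ± 0.29, adjusted p = 0.0107). Clone STMES31 has the same annotation and transcript number, and was not measured on replicate 3 of day 3 or replicate 2 of day 1. Its other arrays gave -0.29 and 0.16 on day 3 and -0.87 and -1.41 on day 1. It had -0.06 ± 0.42 on day 3 (adjusted p = 0.912) and fell on day 1 (-0.92 ± 0.60, adjusted p = 0.0462), with the dye term taken from day 3 alone. The call of STMEP56 ended without replicate 2 (-0.75, adjusted p = 0.0733) or replicate 3 of day 1 (-0.48, adjusted p = 0.0761). That of STMES31 ended without replicate 2 of day 1 (-0.92, adjusted p = 0.0765), which did not measure it. That array enters the variance estimate of all clones, and the ratio of STMES31 was unchanged. STMES31 could not be tested without replicate 1 or 3 of day 1 or replicate 1 or 2 of day 3.

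The W-3 desaturase clone STMED10, named after a potato gene of the enzyme family that makes trienoic fatty acids, fell on both days. It read -0.60, -0.92 and -0.74 on day 3 and -0.66, -0.93 and -0.96 on day 1. The arrays of the days overlapped. It fell on day 3 (-0.78 ± 0.27, adjusted p = 0.00385) and on day 1 (-0.88 ± 0.27, adjusted p = 0.00107). The difference of 0.10 ± 0.37 between the days did not pass (adjusted p = 0.772). Without replicate 2 of day 3 the day 3 call ended (-0.73, adjusted p = 0.197).

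Other clones of this group differed. The rice-like delta-6 desaturase STMIQ17 had -0.33 ± 0.28 on day 3 (adjusted p = 0.184) and fell on day 1 (-0.74 ± 0.28, adjusted p = 0.00325) with all arrays of that day between -0.86 and -0.49, and this call ended without replicate 2 of day 1 (adjusted p = 0.0722). The lipid desaturase-like clone STMEN30 was the sole member that rose on day 3 (0.57 ± 0.31, adjusted p = 0.0422). Its replicate 2, the array with salt in Cy5, was the highest of each day. The arrays read 0.04, 1.20 and -0.13 on day 3 and -0.32, 0.60 and -0.91 on day 1. The dye term of this clone passed its own test (adjusted p = 0.0492). The rise ended without replicate 1, 2 or 3 of day 3 (adjusted p = 0.0715, 0.465 and 0.0662) or replicate 2 of day 1 (adjusted p = 0.081). Without replicate 2 of day 3 the ratio was still 0.56, with the dye term taken from day 1. The pepper-like omega-6 desaturase clones STMIF62 and STMGH41 and fatty acid hydroxylase STMDB85 passed on neither day. They had -0.05, -0.01 and -0.33 on day 3 and -0.24, 0.26 and -0.23 on day 1.

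**Figure D3:**
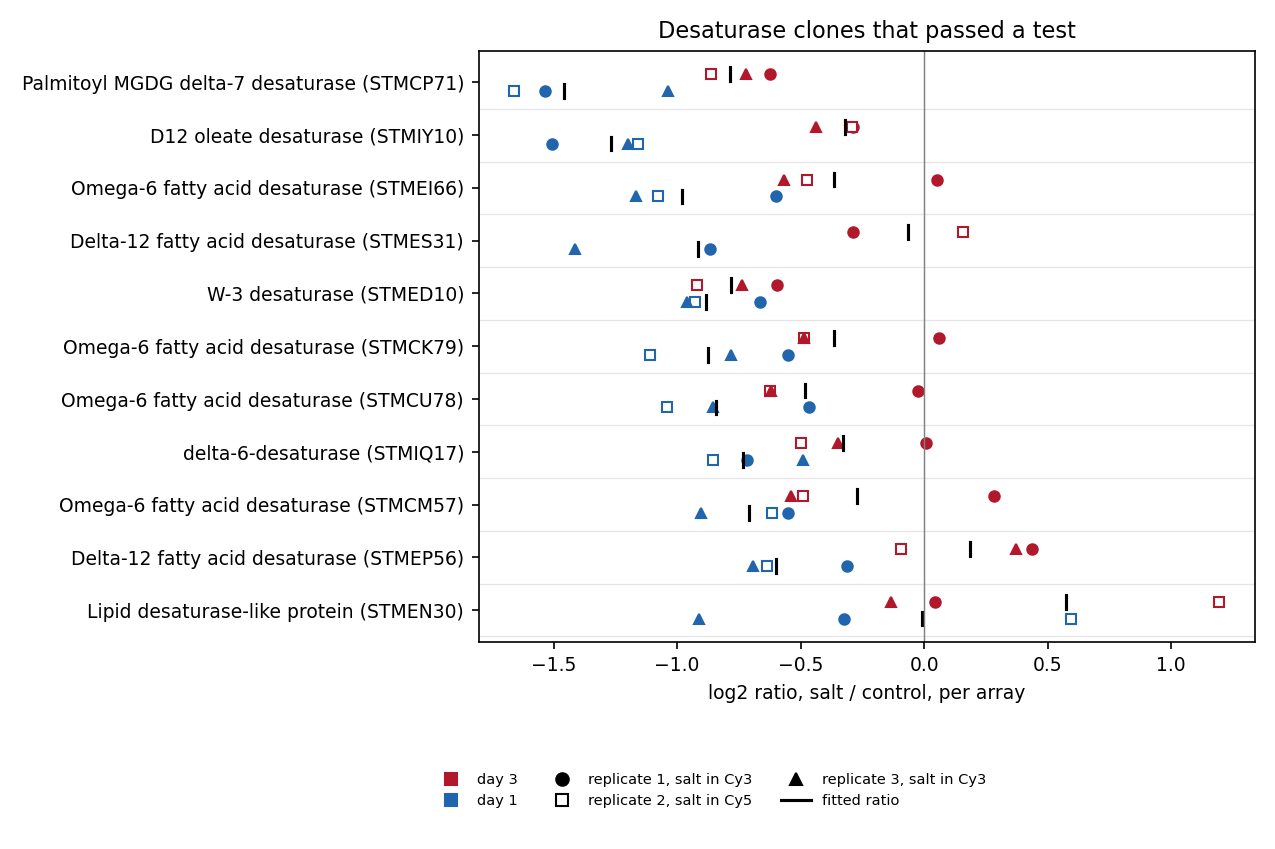
Log2 ratio of salt over control per array for the membrane desaturase clones that passed a test, with day 3 drawn above day 1 in each row, marks for the replicates and vertical bars for the fitted ratios. All of these clones but STMEN30 lie below 0 on every array of day 1 that measured them. The W-3 desaturase STMED10 has overlapping marks of the 2 days.

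Fatty acid hydroperoxide lyase, which cleaves fatty acid hydroperoxides into the short aldehydes of leaf odour, had the lowest ratios of day 3. Clone STMEL50 read -1.62, -1.46 and -1.38 on day 3 and -0.97, -0.98 and -1.19 on day 1. Clone STMCD19, with which it shares a transcript number and a potato annotation, read -1.77, -1.40 and -1.746 on day 3 and -0.80, -0.40 and -0.90 on day 1. In both clones every array of day 3 lay below every array of day 1. STMEL50 fell on day 3 (-1.48 ± 0.27, a 2.78-fold fall, adjusted p = 0.000101) and on day 1 (-1.04 ± 0.27, a 2.05-fold fall, adjusted p = 0.000474). STMCD19 fell on day 3 (-1.57 ± 0.25, a 2.97-fold fall, adjusted p = 4.08e-05) and on day 1 (-0.63 ± 0.25, a 1.55-fold fall, adjusted p = 0.00383). The day 3 falls of both clones held with each array left out, and the day 1 fall of STMCD19 ended without replicate 2 of day 1 (-0.67, adjusted p = 0.0895).

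The glycerolipid and galactolipid group held 2 clones by its words. A 1-acylglycerol-3-phosphate acyltransferase (STMGU14) and a phosphatidylglycerolphosphate synthase (STMGP59) were placed in other groups by their wording. Clone STMJN54, similar to glycerol-3-phosphate acyltransferase 5, an enzyme known in Arabidopsis for the suberin of roots and seed coats, read 0.18, 0.32 and -0.07 on day 3 and -1.13, -0.63 and -0.93 on day 1. The days were separated by a wide gap. It had 0.20 ± 0.27 on day 3 (adjusted p = 0.427) and fell on day 1 (-0.84 ± 0.27, adjusted p = 0.00129), with each array left out as well. Digalactosyldiacylglycerol synthase STMDE29, which makes the second thylakoid galactolipid, had 0.15 on day 3 (adjusted p = 0.619) and 0.21 on day 1 (adjusted p = 0.297).

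Of the 11 clones of phosphatidyl lipids and phosphoinositides, none passed on day 3. On day 1, 2 rose (18.2%, against 8.11% of all clones) and 1 fell (9.09%, against 10.5%). The risers were both clones of a putative phosphatidylinositol-4-phosphate 5-kinase, which makes the bisphosphate that phospholipase C cleaves. These clones share an assembled transcript number, so the 2 rises may be of 1 gene. STMEU75 read 0.24, 0.38 and 0.38 on day 3 and 0.87, 0.75 and 0.85 on day 1. STMHS78 read 0.37, 0.15 and 0.12 on day 3 and 0.65, 1.10 and 0.66 on day 1. Both were above 0 on every array and higher on every array of day 1 than on any of day 3. STMEU75 had 0.33 ± 0.26 on day 3 (adjusted p = 0.14) and rose on day 1 (0.82 ± 0.26, adjusted p = 0.00117). STMHS78 had 0.24 ± 0.29 on day 3 (adjusted p = 0.372) and rose on day 1 (0.83 ± 0.29, adjusted p = 0.00212). Without replicate 2 of day 1 the call of STMHS78 ended (0.61, adjusted p = 0.13), while that of STMEU75 held with each array left out.

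Phosphatidylserine decarboxylase, which makes phosphatidylethanolamine, was measured by a pair of clones with a common transcript number and unlike ratios. STMHQ02 read -0.22, -0.27 and 0.11 on day 3 and -0.61, -0.58 and -0.96 on day 1. Its fitted ratio was -0.13 ± 0.31 on day 3 (adjusted p = 0.715). It fell on day 1 (-0.72 ± 0.31, adjusted p = 0.00583), with each array left out as well. STMJH21 read 0.04, 0.16 and 0.05 on day 3 and -0.21, 0.01 and -0.36 on day 1. It passed neither on day 3 (0.12, adjusted p = 0.673) nor on day 1 (-0.15, adjusted p = 0.414). The gap of 0.57 between them on day 1 was the largest among the 22 pairs of members that share a transcript number and were tested that day, whose median gap was 0.12. The phosphatidylinositol 4-kinase clones STMDH58, STMEK63 and STMGO64 had 0.02 to 0.09 on day 3 and 0.08 to 0.28 on day 1, and none passed.

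Lipases and phospholipases made up the largest group, with 34 clones. On day 3, 1 of 25 tested fell (4%, against 4.42% of all clones) and none rose. On day 1, 2 of 29 tested rose (6.9%, against 8.11% of all clones) and none fell. The share that fell on day 3 and the share that rose on day 1 were thus near those of all clones. Their median was -0.04 on day 3 and 0.05 on day 1. The risers were phosphoinositide-specific phospholipase C STMGI86, named after a potato gene, and triglyceride lipase STMEW94. STMGI86 read -0.10, -0.05 and 0.38 on day 3 and 0.71, 0.29 and 0.84 on day 1. STMEW94 read -0.20, -0.20 and 0.19 on day 3 and 0.59, 0.20 and 0.74 on day 1. In both clones replicate 2 was the lowest array of day 1. STMGI86 had 0.02 ± 0.30 on day 3 (adjusted p = 0.964) and rose on day 1 (0.56 ± 0.30, adjusted p = 0.019). STMEW94 had -0.12 ± 0.29 on day 3 (adjusted p = 0.707) and rose on day 1 (0.46 ± 0.29, adjusted p = 0.0367). Both calls ended without replicate 1, 2 or 3 of day 1 (adjusted p = 0.0902, 0.118 and 0.104 for STMGI86 and 0.119, 0.183 and 0.172 for STMEW94), and that of STMEW94 without replicate 2 of day 3 (adjusted p = 0.0828).

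The fall of day 3 was of a GDSL-motif lipase, STMCK85 (-0.99 ± 0.51, adjusted p = 0.0356), and its value lies outside the measurements. It had -0.10 and -0.60 on its 2 measured arrays of day 3, both with salt in Cy3, and the dye term came from day 1, where the arrays read 0.60, -0.78 and 0.42. The call was lost without replicate 1 (adjusted p = 0.132) or 3 of day 1 (adjusted p = 0.0631) and also without replicate 2 of day 3 (adjusted p = 0.0743), which did not measure this clone but enters the variance estimate of all clones. Clone STMDB20, with the same transcript number, also had replicate 2 against the other arrays of day 1, with 0.72, -0.91 and 1.38, and passed on neither day. The tomato-like phospholipases D STMGD35 and STMGL69, which release phosphatidic acid, did not pass, with 0.18 and 0.38 on day 3 and 0.15 and 0.05 on day 1.

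The clones placed by their wording under acyl-CoA metabolism and beta-oxidation numbered 13. Among them were the acyltransferase STMGU14 and a beta-ketoacyl-CoA synthase, STMGU18, which could not be tested. On day 3, 1 of 10 tested fell (10%, against 4.42% of all clones), and on day 1, 2 of 12 tested rose (16.7%, against 8.11%). Counts this small do not set the group apart from all clones. Acyl-CoA synthetases, which activate free fatty acids, went both ways. The pepper-like clone STMFB08 read 0.42, 0.42 and 0.89 on day 3 and 0.87, 1.74 and 1.03 on day 1, above 0 on every array. It had 0.62 ± 0.39 on day 3 (adjusted p = 0.0728) and rose on day 1 (1.26 ± 0.39, a 2.40-fold rise and the highest fitted ratio of any member, adjusted p = 0.00114). Clone STMJA20 has the same pepper annotation but another transcript number, and its fitted ratio was -0.06 on day 3 (adjusted p = 0.89) and -0.41 on day 1 (adjusted p = 0.0644). The Arabidopsis-like clone STMIQ72 read -0.70, -0.40 and -0.63 on day 3 and -0.35, -0.44 and -0.05 on day 1. It fell on day 3 (-0.57 ± 0.30, adjusted p = 0.0331), with -0.27 ± 0.30 on day 1 (adjusted p = 0.195). The call of STMFB08 ended without replicate 2 of day 1 (0.83, adjusted p = 0.0598), and that of STMIQ72 held only without replicate 3 of day 1, with adjusted p of up to 0.148 without the others.

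Peroxisomal 3-ketoacyl-CoA thiolase 2, the last enzyme of the beta-oxidation cycle, was measured by STMCM11 and STMIW82, which share a transcript number. STMCM11 read 0.33, -0.10 and 0.03 on day 3 and 0.52, 0.53 and 0.47 on day 1. Its fitted ratio was 0.07 on day 3 (adjusted p = 0.854) and 0.49 ± 0.28 on day 1, where it rose (adjusted p = 0.0232). STMIW82 read 0.11, 0.11 and -0.53 on day 3 and -0.01, 0.17 and -0.26 on day 1, with fitted ratios of -0.05 on day 3 (adjusted p = 0.912) and 0.02 on day 1 (adjusted p = 0.951). The rise of STMCM11 ended without replicate 1, 2 or 3 of day 1 (adjusted p = 0.0898, 0.407 and 0.0682).

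The elongation and wax group held 5 clones by its words, of which none passed on day 3 and 1 rose on day 1 (20%, against 8.11% of all clones). The fatty acid elongase-like clone STMCV45 read -0.16, 0.18 and 0.25 on day 3 and 0.30, 0.57 and 0.60 on day 1. It had 0.11 ± 0.30 on day 3 (adjusted p = 0.744) and rose on day 1 (0.51 ± 0.30, adjusted p = 0.0252). That call ended without replicate 1, 2 or 3 of day 1 (adjusted p = 0.0647, 0.246 and 0.141) or replicate 2 of day 3 (adjusted p = 0.0522). The cotton-like 3-ketoacyl-CoA synthase STMIX28 was below 0 on all 6 arrays, with -0.39, -0.14 and -0.19 on day 3 and -0.48, -0.30 and -0.36 on day 1. It passed on neither day (adjusted p = 0.366 on day 3 and 0.0603 on day 1). The Arabidopsis-like beta-ketoacyl-CoA synthase STMHZ41 went the other way on day 3. It had 0.52 and 0.64 on the 2 arrays that measured it on day 3 and 0.065, -0.20 and -0.17 on day 1. STMHZ41 missed the test on day 3 (0.58 ± 0.34, adjusted p = 0.0612) and on day 1 (-0.11 ± 0.29, adjusted p = 0.622). Neither wax synthase passed on either day, isoform 3 (STMDT79) with -0.04 on day 3 and 0.43 on day 1, and isoform 1 (STMCZ73) with -0.14 on day 3 and 0.18 on day 1. No sphingolipid clone of 5 passed on either day. The smallest p among them was that of a sphingosine or diacylglycerol kinase, STMGG27, with -0.12 ± 0.37 on day 3 and 0.43 ± 0.37 on day 1 (adjusted p = 0.107).

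**Figure D4:**
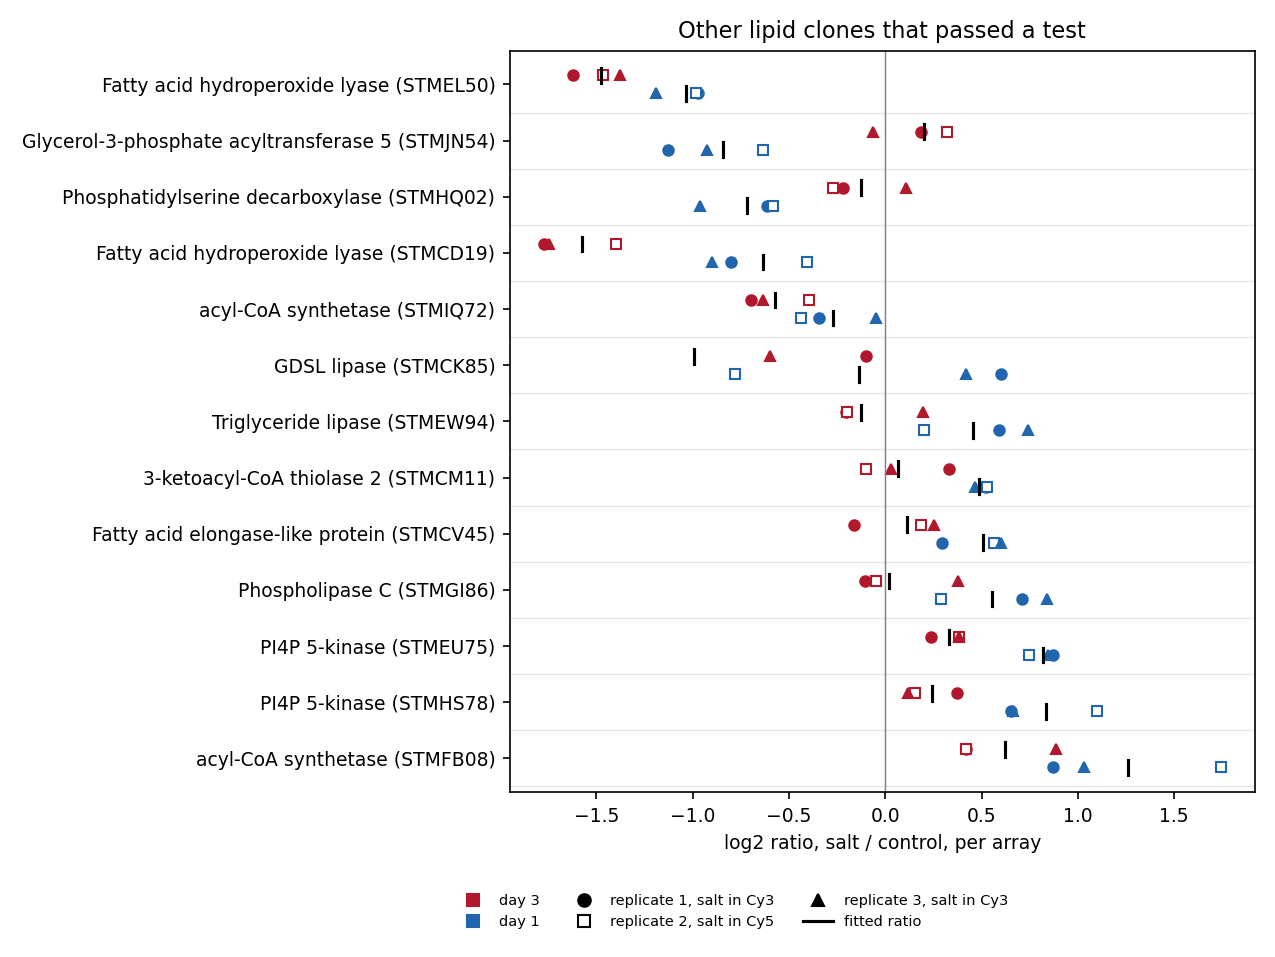
Log2 ratio of salt over control per array for clones of the other roles that passed a test, with day 3 drawn above day 1 in each row, marks for the replicates and vertical bars for the fitted ratios. Hydroperoxide lyase clones STMEL50 and STMCD19 lie below -0.4 on every array, and the kinase clones STMEU75 and STMHS78 lie above 0 on every array.

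The days were then set against each other by the contrast of day 3 minus day 1, which tests the difference itself. Of 93 members tested, 9 were higher and 2 were lower on day 3 than on day 1, while 6.53% of all clones tested were higher and 5.08% lower. The 9 comprised 5 clones of plastid synthesis (STMFB55, STMDI44, STMCG92, STMEC59 and STMIP35), 3 desaturases (STMCP71, STMIY10 and STMEP56) and the acyltransferase STMJN54. Each of them had fallen on day 1, and of the 9 only STMCP71 also fell on day 3. The acyltransferase differed by 1.04 ± 0.37 (adjusted p = 0.00484), the oleate desaturase STMIY10 by 0.95 ± 0.37 (adjusted p = 0.00737) and the galactolipid desaturase STMCP71 by 0.67 ± 0.41 (adjusted p = 0.0435). Largest was the difference of synthetase I STMDI44 (1.30 ± 0.69, adjusted p = 0.0261). The 2 lower ones were hydroperoxide lyase STMCD19 (-0.94 ± 0.34, adjusted p = 0.00536) and cyclopropane fatty acid synthase STMIU72 (-0.73 ± 0.38, adjusted p = 0.0229). The second lyase clone, STMEL50, had -0.44 ± 0.37 (adjusted p = 0.127).

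Replicate 1 of day 3 moved with part of these differences. Without it, 5 of the 9 members still passed as higher on day 3, among them STMIY10, STMJN54 and STMDI44. The differences of STMCP71 (0.66, adjusted p = 0.0606), STMFB55 (0.84, adjusted p = 0.0695) and STMEC59 (0.67, adjusted p = 0.0528) no longer passed, and STMIP35 could not be tested. Without replicate 1 of day 1, 1 of the 9 still passed, STMJN54. The difference of STMDI44 did not pass without replicate 1, 2 or 3 of day 1 or replicate 2 of day 3 (1.36, 1.32, 1.23 and 1.32, adjusted p = 0.122, 0.0732, 0.0939 and 0.0665). That of STMEC59 failed the test whichever array was left out (0.56 to 0.84, adjusted p = 0.0528 to 0.155). STMJN54 and STMCD19 passed with each array left out, and STMIY10 failed only without replicate 1 of day 1 (0.85, adjusted p = 0.0548). The days come from separate plants, so plant set and day cannot be told apart.

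**Figure D5:**
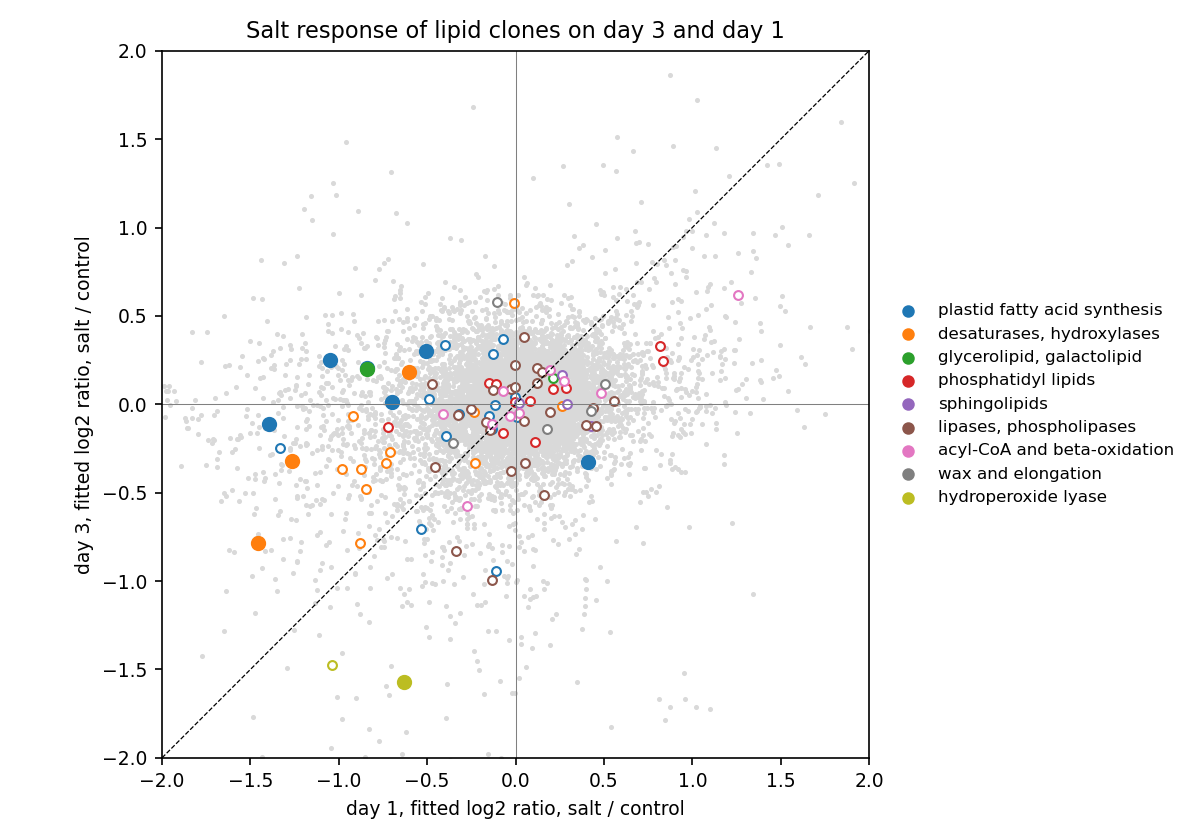
Fitted log2 ratio of salt over control on day 3 (vertical axis) and day 1 (horizontal axis) for members in colour by role and all other clones in grey, with the line of equal ratios dashed, and clones beyond 2 in size not shown. Filled points passed the test of day 3 minus day 1; plastid synthesis and desaturase points lie mostly left of 0 and above the line, and the hydroperoxide lyase points at the bottom lie below it.

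Averaged over both days, 19 of 93 members fell and 3 rose, while 10.6% of all clones tested fell and 7.2% rose. The lowest averages were those of hydroperoxide lyase, STMEL50 with -1.26 ± 0.20 (adjusted p = 3.77e-05) and STMCD19 with -1.10 ± 0.18 (adjusted p = 5.03e-05), and of desaturase STMCP71 with -1.12 ± 0.22 (adjusted p = 9.67e-05). The 3 that rose were acyl-CoA synthetase STMFB08 (0.94 ± 0.29, adjusted p = 0.00106) and the kinase clones STMEU75 (0.57 ± 0.19, adjusted p = 0.00143) and STMHS78 (0.54 ± 0.21, adjusted p = 0.00408). The ketoacyl-CoA synthase STMIX28 passed here and in no single day (-0.29 ± 0.19, adjusted p = 0.0433). Of the 81 members measured on every array, 12 were below 0 on all of them and 3 were above 0 on all. Desaturases or hydroxylases made up 6 of the 12. The shares over all clones were not counted, so these counts cannot be read as a trait of the members.

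Other genes around these pathways were taken by words such as enoyl, diacylglycerol, acyltransferase and lipid transfer, which gave 51 clones. On day 3, 3 of 44 tested rose (6.82%, against 1.93% of all clones) and 1 fell (2.27%, against 4.42%). On day 1, 4 of 47 rose (8.51%, against 8.11% of all clones) and 3 fell (6.38%, against 10.5%). The rises of day 3 were all of non-specific lipid-transfer protein 2, highest in STMGR44 (1.86 ± 0.41, adjusted p = 0.000317) and STMGQ20 (1.72 ± 0.41, adjusted p = 0.000531), and an acyltransferase homolog, STMCR09, fell (-0.58 ± 0.26, adjusted p = 0.0158). On day 1 a biotin carboxylase subunit, STMIS70, fell by 0.74 on the log2 scale (adjusted p = 0.00934), and glycolipid transfer protein-like STMEV05 fell by 0.54 (adjusted p = 0.0169). The rises of day 1 with the smallest p were a dihydrolipoylacyltransferase, STMID10 (0.88, adjusted p = 0.00127), which matched by its wording alone, and STMGQ20 (1.02, adjusted p = 0.00422). The 3 clones of enoyl-ACP reductase, which closes the cycle of plastid synthesis, did not pass: STMCO37 had -0.15 on day 3 and -0.50 on day 1, STMDB67 had 0.06 and -0.09, and STMEI02 had -0.25 and -0.35 on the same days.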

How the data were processed

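Two-colour cDNA arrays of salt and control leaves were analysed from the log2 ratios deposited by the authors, 1 value per clone and array, beside a p-value for each clone and day that the authors computed with a one-sample test, per the file headers. The way in which spots were scanned, corrected, normalized and filtered was not given in the sources used here, nor was the base of the logarithm. Base 2 was assumed. Names came from an annotated table joined to the value table by its values. In 8 rows these are shared with another row. Whether the authors had turned the ratios by dye is not stated, and they were used as deposited. Array precision is limited by 3 arrays per day.

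All clones were fitted together by least squares with a term for each day and for dye orientation, which leaves 3 residual degrees of freedom for a clone measured throughout. Tests were those of limma 3.58.1 under R 4.3.3 (moderated variance, two-sided, Benjamini-Hochberg adjustment over all clones tested, threshold 0.05). At least 2 arrays of a day were needed. The dye term had an unadjusted p under 0.05 in 15 of 100 members and an adjusted one in 1. Over all clones these counts were 1813 and 90 of 9742 tested. As a check of the fitting code, the fit was run on simulated ratios with errors independent between arrays. That run cannot speak to errors shared between arrays in these data. Tables and figures were made with Python 3.11.15, pandas 2.3.3, NumPy 2.4.6 and matplotlib 3.10.9.

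Members, roles and neighbour lists are word patterns, chosen with earlier results of these data known. Because 34 members passed on day 1 or day 3, the rule took the 4 with the smallest p per role and test, the smallest of a role with none, and clones of the same name, 37 in all. STMIQ17, STMCA28, STMIP35, STMEK75, the ketoacyl-CoA synthase STMIX28 and the other clones described as not passing were added after their values were seen. For neighbours it took 2 per direction and day, and the enoyl-ACP reductases and STMHT62 were added. Alternatives were no dye term, scaling, centring, complete clones, a looser threshold, a replicate block, 1 value per name, members outside lipid metabolism left out and each array left out.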

Additional observations from a re-analysis of the deposited data

Results flagged for a closer look

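The response to salt differed between day 3 and day 1 in 11 members by the test of the difference itself (limma, adjusted over all 9030 clones tested). Among plastid synthesis clones, day 3 minus day 1 was 1.29 in acyl carrier protein STMFB55, 1.30 in synthetase I STMDI44, 1.05 in acyl-ACP desaturase STMCG92, 0.71 in synthetase I STMEC59 and 0.81 in synthase I STMIP35. It was 0.67 in galactolipid desaturase STMCP71, 0.95 in oleate desaturase STMIY10, 0.79 in delta-12 desaturase STMEP56 and 1.04 in acyltransferase STMJN54. It was -0.94 in hydroperoxide lyase STMCD19 and -0.73 in cyclopropane synthase STMIU72. The days come from different plants, and the part of replicate 1 of day 3 in these differences was not tested beyond leaving that array out.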

How the results depend on the processing

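Leaving out each array in turn left 2 to 10 falls and 0 to 1 rises on day 3, and 10 to 27 falls and 1 to 10 rises on day 1. The day 3 falls were fewest without replicate 2 of day 3 and the day 1 falls without replicate 2 of day 1. Members higher on day 3 than on day 1 then numbered 1 to 12 and lower ones 1 to 4, and in the average 9 to 25 fell and 2 to 6 rose. The median member lay between -0.0675 and 0.043 on day 3, above 0 only without replicate 2 of day 3, and between -0.11 and -0.08 on day 1. Without the dye term no member rose on day 3, 3 were higher on day 3 than on day 1 and the day 1 median was -0.0603. With arrays scaled to equal spread 4 rose on day 3. At an adjusted p under 0.1, 3 rose on day 3, 6 were lower on day 3 than on day 1 and 7 rose in the average. The cause of these shifts was not tested.

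Replicate numbers do not pair the days, which come from different plants, and deviations of same-numbered arrays correlated at 0.05, 0.60 and 0.45. With the replicate number as a block in place of the dye term, 10 members fell and 0 rose on day 3 and 26 fell and 9 rose on day 1, while 4 were lower on day 3 than on day 1 and 6 rose in the average. Centring, complete clones and 1 value per annotation left every count of members within 1.5 times its value, and leaving out members outside lipid metabolism changed nothing, as there were none. The day 3 median of the members changed sign as given above, as did 33 values of single clones that had not passed, and no value that had passed changed sign in any setting tried. Depth is not recorded in the ratios, so dim spots could not be told from bright ones.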

Other observations

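In the authors' deposited table, 13 members had a p-value under 0.05 on day 3 and 31 had one on day 1, which is 12.3% and 29.2% of the 106, against 9.69% and 19.4% of all clones on those days. Of these, 6 on day 3 and 24 on day 1 also passed the test used above. Replicate 1 of day 3 had the opposite sign to both other arrays in 22 of 82 members measured on all arrays of that day. On day 1, replicate 2, the array with salt in Cy5, was opposite to both others in 24 of 97 members. The shares over all clones were not counted, so neither count can be read as a trait of these members. Members that share an assembled transcript number had a median gap in their fitted ratios of 0.10 on day 3 over 20 pairs and 0.12 on day 1 over 22 pairs.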
